A study of Mus musculus with 17 samples.

Results

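The genes described here encode the proteasome, the protease complex that degrades ubiquitin-tagged proteins, together with its activators, its inhibitor and its assembly chaperones. Members were the autosomal protein-coding genes of GENCODE M21 whose symbols start with Psma, Psmb, Psmc, Psmd, Psme, Psmf or Psmg, which gave 49 of the 20807 autosomal protein-coding genes. The measurement was CUT&RUN for the histone variant H3.3 in mouse pachytene spermatocytes, a method in which an antibody tethers a nuclease to chromatin and the fragments it releases are sequenced. The series asked how the chromatin remodeler subunit ARID1A shapes chromatin in meiotic male germ cells. It holds 17 libraries, of which 2 Arid1a WT and 3 Arid1a cKO libraries profiled H3.3. The 12 libraries made with ARID1A antibodies were not analysed here.

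Arid1a cKO males carried Arid1a fl/fl with Stra8-Cre Tg/0, whose Cre is expressed in spermatogonia. Arid1a WT males carried Arid1a fl/fl or Arid1a fl/+, and the floxed line was kept on a CD1 background. Cells of each genotype came from pooled testes of adult males, separated by sedimentation at unit gravity (Sta-Put). Excision by Stra8-Cre was incomplete, so some spermatocytes of the Arid1a cKO preparations kept ARID1A. The deposited values were 1 peak list per genotype, made by the authors by intersecting the peaks of the replicate libraries. Such lists allow neither an error over replicates nor a genotype test, and library depth is unknown. The labelled cell type could not be checked against marker genes, since peak lists hold no expression values.

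The catalytic core of the proteasome, the 20S particle, is a stack of rings built from alpha subunits (Psma genes) and beta subunits (Psmb genes). The 19S particle caps the core, with a base of ATPases (Psmc genes) that unfold substrates and a set of non-ATPases (most Psmd genes) that bind and deubiquitinate them. Immune cells, or cells exposed to interferon, replace the catalytic beta subunits by Psmb8, Psmb9 and Psmb10 and use the activator PA28 (Psme1 and Psme2) to make peptides for antigen presentation. Developing spermatocytes make Psma8, an alpha subunit that replaces Psma7 in a testis form of the core. H3.3 is the histone H3 variant that is placed on chromatin outside DNA replication, and it is known for its presence at active promoters and on the inactivated sex chromosomes of pachytene cells.

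A gene was called listed when a peak of a list overlapped the window from 1 kb before to 1 kb after any of its annotated transcript starts. In the Arid1a cKO list, 22 of the 49 members (44.9%) were listed, beside 6145 of the 20807 genes (29.5%). No member was listed in Arid1a WT, nor was any of the 20807 genes (0%): that list held 228 rows, of which 4 lay on autosomes. The absence of WT peaks was therefore a property of the whole list and is no result about proteasome genes. All values below are from the Arid1a cKO list.

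Of the 22 listed members, 12 were subunits of the 19S cap. Of the 11 non-ATPases of the cap, 9 were listed, and of its 6 ATPases 3 were. The 20S core had 5 of its 14 constitutive subunits listed, 3 of 7 in the alpha ring and 2 of 7 in the beta ring. Among the assembly chaperones 3 of 6 were listed, and among the remaining activators and the inhibitor 2 of 3. None of the 7 immune genes (Psmb8, Psmb9, Psmb10, Psmb11, Psme1, Psme2 and Psme2b) was listed, and neither was Psma8. Of the 7 immune genes, 6 lacked a CpG-rich start (defined below), as did Psma8. Over all autosomal protein-coding genes without such a start 7.14% were listed, so a count of 0 was near that share. Psmc3ip, which shares the symbol prefix but encodes a meiotic recombination factor, was not listed either. Psmd10, a chaperone gene of the X chromosome and so no member, had its nearest peak 291 kb away.

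**Figure D1:**
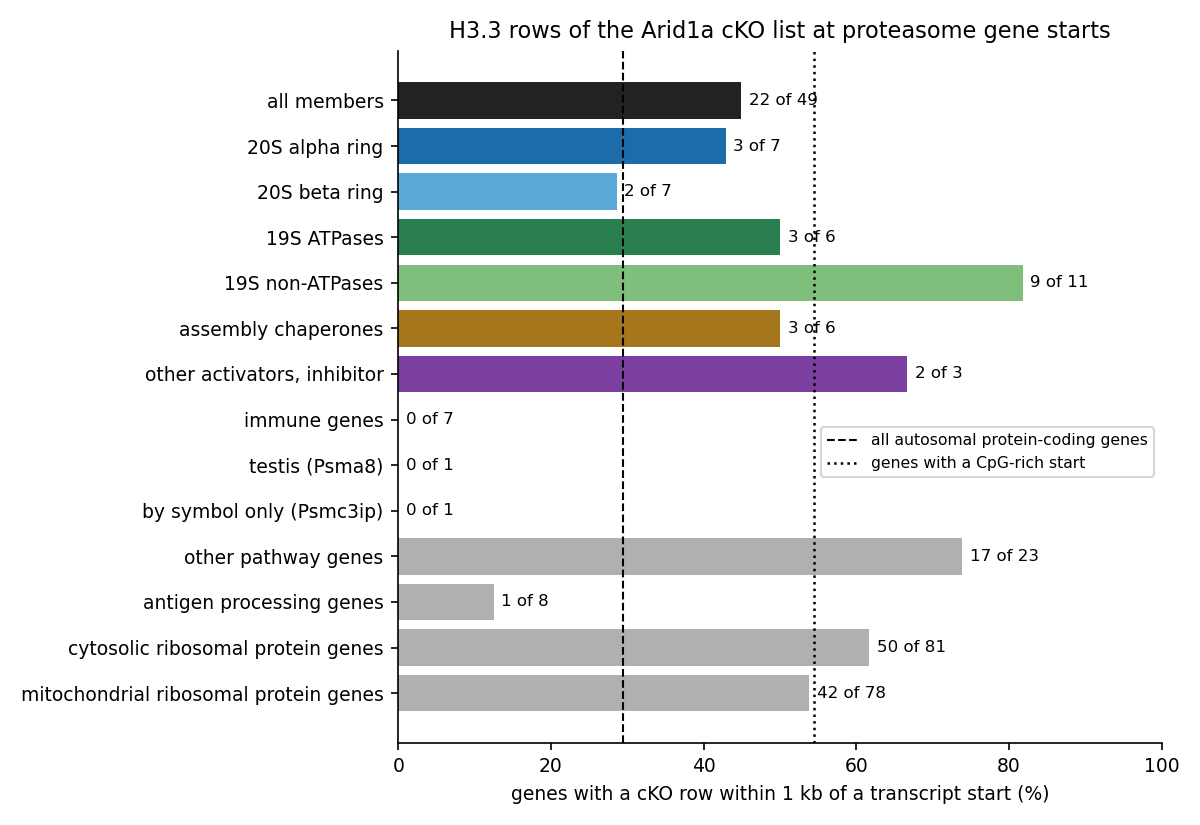
Share of genes with an Arid1a cKO H3.3 peak within 1 kb of a transcript start (x axis, percent) for all members, each class of member (coloured bars) and the gene lists set beside them (grey bars), with counts printed at the bars. The dashed line is the share over all autosomal protein-coding genes (29.5%) and the dotted line that over genes with a CpG-rich start (54.4%). The share over genes without a CpG-rich start, 7.14%, has no line. The 19S non-ATPases reach 81.8%, and immune genes and Psma8 stand at 0.

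Upstream sequences are shown here because the share of genes listed varied with CpG content, as given after them, and because they let listed, unlisted constitutive and immune genes be read side by side. The sequences are from RefSeq (GRCm38.p6), 5′ to 3′ on the gene's strand, and stop before the first annotated exon within the 250 bases upstream of the RefSeq start. Capitals mark CpG dinucleotides. Listed members, with a peak at the start, come first. They are Psmd8 (chr7:29180702-29180923, minus strand), Psmd11 (chr11:80428365-80428614, plus strand), Psmc6 (chr14:45329574-45329787, plus strand) and the nuclear activator gene Psme3 (chr11:101315963-101316212, plus strand).
Psmd8: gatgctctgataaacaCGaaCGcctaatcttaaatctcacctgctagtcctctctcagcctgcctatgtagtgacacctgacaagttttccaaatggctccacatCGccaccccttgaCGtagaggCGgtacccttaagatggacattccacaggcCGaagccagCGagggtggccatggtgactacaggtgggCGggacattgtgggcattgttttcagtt
Psmd11: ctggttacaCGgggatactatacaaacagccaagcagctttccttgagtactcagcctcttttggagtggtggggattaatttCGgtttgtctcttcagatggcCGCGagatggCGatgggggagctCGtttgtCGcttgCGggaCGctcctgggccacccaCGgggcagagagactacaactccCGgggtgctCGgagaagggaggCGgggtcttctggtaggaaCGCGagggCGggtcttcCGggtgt
Psmc6: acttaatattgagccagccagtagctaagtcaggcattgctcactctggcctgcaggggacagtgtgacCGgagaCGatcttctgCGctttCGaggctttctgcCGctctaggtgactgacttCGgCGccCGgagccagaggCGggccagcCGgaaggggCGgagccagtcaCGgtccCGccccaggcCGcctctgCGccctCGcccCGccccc
Psme3: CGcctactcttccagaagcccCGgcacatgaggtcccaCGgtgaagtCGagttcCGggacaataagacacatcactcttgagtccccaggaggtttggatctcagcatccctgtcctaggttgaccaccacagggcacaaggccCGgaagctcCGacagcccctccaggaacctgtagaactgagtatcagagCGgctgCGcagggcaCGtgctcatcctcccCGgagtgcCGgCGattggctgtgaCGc

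The printed stretches of the listed genes held 8 CpGs in 222 bases for Psmd8, 17 in 250 for Psmd11, 17 in 214 for Psmc6 and 14 in 250 for Psme3. The peak covered the stretch of Psmc6 wholly and those of Psmd8 and Psme3 only at their downstream end. That of Psmd11 lay outside its peak. Psmb5 (chr14:54618023-54618245, minus strand) and Psmb6 (chr11:70525107-70525356, plus strand), constitutive catalytic subunits without a peak, had 14 CpGs in 223 bases and 10 in 250.
Psmb5: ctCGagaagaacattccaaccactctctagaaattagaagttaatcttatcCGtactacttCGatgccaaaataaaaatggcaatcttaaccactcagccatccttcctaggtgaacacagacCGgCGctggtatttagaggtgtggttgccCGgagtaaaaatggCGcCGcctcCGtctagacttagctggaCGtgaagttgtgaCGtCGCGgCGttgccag
Psmb6: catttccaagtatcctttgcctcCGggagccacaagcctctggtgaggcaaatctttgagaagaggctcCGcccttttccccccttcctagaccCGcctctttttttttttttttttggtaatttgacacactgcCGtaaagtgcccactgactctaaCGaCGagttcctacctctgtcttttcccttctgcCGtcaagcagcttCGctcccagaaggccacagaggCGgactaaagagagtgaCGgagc

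Immune genes without a peak were Psmb10 (chr8:105938445-105938642, minus strand), the inducible partner of Psmb7, and Psme2 (chr14:55591114-55591351, minus strand), a PA28 subunit. Psmb10 had 3 CpGs in 198 bases, the fewest of the 8 sequences shown, and Psme2 had 10 in 238. The listed Psmd8, with 8 in 222, had fewer than the unlisted Psme2, Psmb5 and Psmb6. The CpG counts of these stretches thus do not separate listed from unlisted genes.
Psmb10: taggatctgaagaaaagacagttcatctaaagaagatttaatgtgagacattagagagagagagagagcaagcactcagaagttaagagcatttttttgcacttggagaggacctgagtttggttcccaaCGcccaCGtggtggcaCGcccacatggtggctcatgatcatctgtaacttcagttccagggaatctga
Psme2: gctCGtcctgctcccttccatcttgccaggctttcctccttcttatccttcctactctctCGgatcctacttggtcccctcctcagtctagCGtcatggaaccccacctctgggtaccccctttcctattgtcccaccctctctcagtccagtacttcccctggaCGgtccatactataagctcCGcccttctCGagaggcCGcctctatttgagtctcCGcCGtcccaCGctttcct

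Over the 1 kb centred on the reference start (that of the APPRIS principal transcript), a start was called CpG-rich when its G+C content was at least 50% and its ratio of observed to expected CpG was at least 0.6. By this rule 39 of the 49 members were CpG-rich, and 21 of these 39 (53.8%) were listed. Among all autosomal protein-coding genes, 5364 of 9864 with a CpG-rich start were listed (54.4%), against 781 of 10943 others (7.14%). The members thus stood above the share of all genes and at the share of CpG-rich genes. Constitutive subunits gave 17 of 30 CpG-rich genes (56.7%), and the 19S and 20S fell on either side of the CpG-rich background, with 12 of 17 (70.6%) and 5 of 13 (38.5%).

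Observed over expected CpG was low in the immune class, with a median of 0.40. The median was 0.72 over all members and 0.59 over all autosomal protein-coding genes. Psme2b had 0.24, Psmb10 0.26, the thymic beta subunit gene Psmb11 0.39, Psme1 0.40 and Psme2 0.43. Psmb8, with 0.58, was near the all-gene median. Psmb9 was the exception, with 0.66 at 63.3% G+C, and it was the 1 immune gene with a CpG-rich start. Its start was unlisted, with the nearest peak 60.5 kb away. Psma8 had a CpG ratio of 0.56, also near the all-gene median, and the lowest G+C content of the 49 members, 45.4%. Psmf1, the proteasome inhibitor gene, had the lowest CpG ratio, 0.16, at its reference start. In the listed constitutive subunits the ratio ran from 0.66 to 0.93 (median 0.79, n = 17), and in the unlisted ones from 0.62 to 0.96 (median 0.70, n = 14), so the ranges overlapped almost wholly. Psmg4, whose ratio printed as 0.60 lay just under the minimum, was the single listed member without a CpG-rich start.

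**Figure D2:**
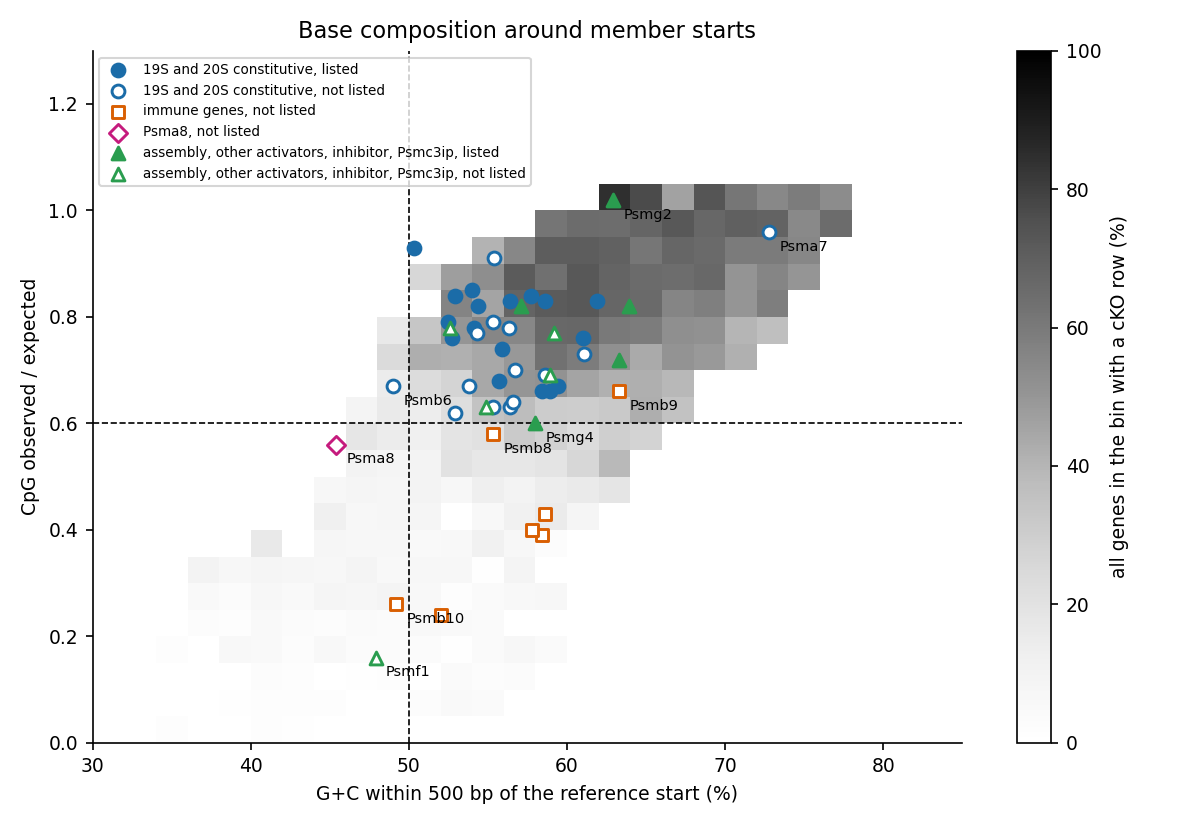
G+C content (x axis, percent) and observed over expected CpG (y axis) within 500 bp of the reference start for the 49 members, filled where an Arid1a cKO peak was listed and open where not, with dashed lines at 50% and 0.6. Grey shading is the share of all autosomal protein-coding genes in each bin with a peak (bins of at least 20 genes); open immune symbols lie mostly at ratios of 0.24 to 0.58, and filled and open constitutive symbols mix above 0.6.

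The fold of a peak is the ratio of H3.3 pileup to IgG pileup that the authors' peak caller averaged over the peak, on a linear scale. The list does not say which of the 3 libraries it came from. Among the 22 listed members it ran from 2.85 to 7.82 with a median of 4.82, and over all 6145 listed genes from 2.81 to 14.87 with a median of 4.12. Of the 22, 13 lay above the all-gene median. The −log10 q is the caller's significance of the peak against that IgG background, and its median was 5.23 for members and 3.92 for all listed genes. At a −log10 q of at least 5, 12 members (24.5%) were listed beside 9.56% of all genes. The share at this cutoff was not computed for CpG-rich genes alone. It was 29.6% in cytosolic and 16.7% in mitochondrial ribosomal protein genes. By class, the median fold was 5.54 in the 3 listed ATPases, 5.17 in the 9 listed non-ATPases, 4.09 in the 3 listed alpha subunits and 3.70 in the 3 listed chaperones.

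Psma4, an alpha ring subunit, had the highest fold of any member, 7.82, with a −log10 q of 10.80. It was higher than the fold of 98.0% of all listed genes. Its peak (chr9:54950676-54951149, 474 bp) covered a start, with the centre 22 bp downstream. Psmd8, a lid subunit, followed with a fold of 6.52 and a −log10 q of 8.22 over chr7:29180307-29180746 (440 bp). Its peak was centred 26 bp downstream of a start. Psmb7, the constitutive trypsin-like catalytic subunit, had a fold of 6.43 and a −log10 q of 7.67 in a short peak of 236 bp (chr2:38643687-38643922). Psmd1, the large scaffold subunit of the base, had 6.24 and 9.23 over 652 bp (chr1:86064415-86065066). Psmc6, an ATPase, had 5.60 and 7.87 over 476 bp (chr14:45329482-45329957). These 5 came from the alpha ring, the beta ring, the base and the lid, so high folds were not held by 1 part of the particle.

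At the low end, Psmd7, a lid subunit that pairs with the deubiquitinase Psmd14, had a fold of 2.85 and a −log10 q of 1.77 over 523 bp (chr8:107588018-107588540). Psmb1, a noncatalytic beta subunit, had 3.25 and 2.22 over 302 bp (chr17:15497975-15498276). Psme4, which encodes the activator PA200 and is needed for normal spermatogenesis, had 3.50 and 3.26 over 412 bp (chr11:30771987-30772398). The chaperone gene Psmg2 had 3.56 and 3.35 in a peak of 288 bp, and Psmd2, a scaffold subunit of the base, had 3.60 and 3.43 over 371 bp (chr16:20651674-20652044). Between these ends lay Psma2 (fold 3.63), the chaperone Psmd5 (3.70), Psmd14 (3.92), Psma3 (4.09), Psme3 (4.35), Psmg4 (4.73), Psmc2 (4.91), Psmd11 (5.14), Psmd13 (5.17), Psmd12 (5.30), Psmd6 (5.33) and Psmc1 (5.54). With no replicate values, neighbours in this order cannot be told apart.

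**Figure D3:**
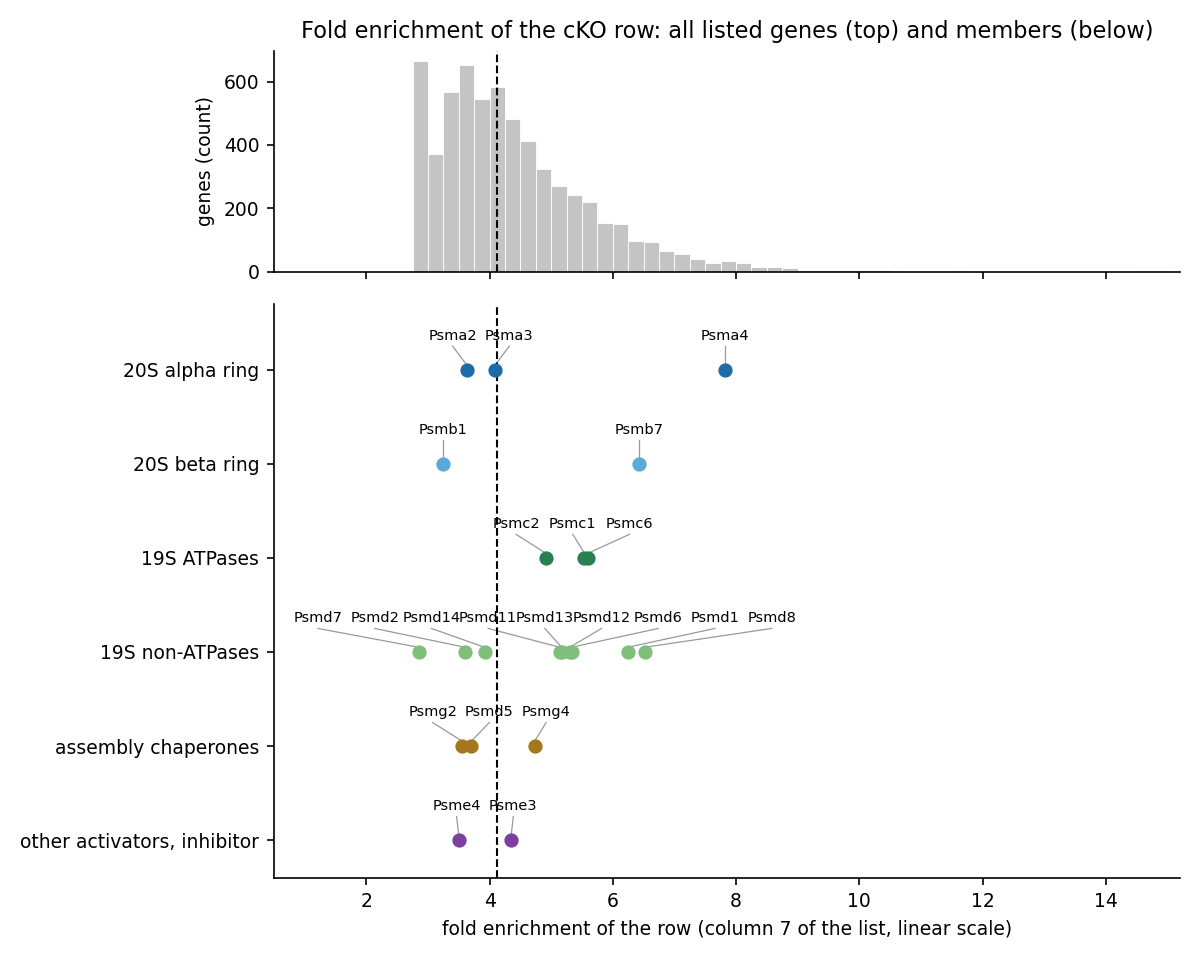
Fold enrichment of the Arid1a cKO peak (x axis, linear ratio of H3.3 to IgG pileup). The top panel is a histogram of the 6145 listed autosomal protein-coding genes, the lower panel has 1 point for each of the 22 listed members by class, and the dashed line marks the all-gene median of 4.12; Psma4 at 7.82 stands highest and Psmd7 at 2.85 lowest.

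Most member peaks lay across an annotated start. At 18 of the 22 the peak covered an annotated start (81.8%, beside 76.7% of all listed genes). This start could be that of any transcript. Among these 18, the peaks of Psma3, Psmb7, Psmc1, Psmd2, Psmd12 and Psme4 lay wholly downstream of the reference start. The centre lay downstream of the nearest start in 16 and upstream in 6, with a median of 121 bp downstream. Psme4 is among those 6 because its nearest start was not the reference start. Over all listed genes 61.4% of centres lay downstream with a median of 39 bp. By annotation, the centre fell in an exon of the member in 11, in an intron in 7 and upstream of the gene in 4. Psma3 had the centre farthest downstream, at 281 bp, and also the widest peak, 726 bp. Widths ran from 219 bp at Psmc2 to 726 bp, with a median of 424.5 bp for members and 449 bp for all listed genes. Each of the 22 peaks was written in the list as 2 overlapping rows, as an intersection of replicates can produce, and the wider row is given here.

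Some peaks lay as near to another gene as to the member. The peak nearest to Psmg2 ended 375 bp before its start, and its centre was 256 bp inside Cep76, which is transcribed the other way. Likewise, the peak of Psmc2 ended 138 bp before the start and its centre lay 118 bp inside Dnajc2. The peak of Psmd13 covered its own start, and its centre was 13 bp upstream of the start of Sirt3. At Psma2 the peak lay inside the gene, 106 bp from the start of Mrpl32. At Psma4 it also covered a start of the gene AY074887. In all, 5 of the 22 listed members (22.7%) had their peak within 1 kb of a start of another protein-coding gene, beside 27.1% of all listed genes, and such a peak cannot be assigned to 1 of the genes. Without those 5, a setting chosen after seeing the data, 17 of 44 members were listed, and without the 4 that were constitutive subunits 13 of 27 of these. Only listed genes can be removed in this way, so the counts can only fall. Over all genes the same step removed 1663 of the 6145 listed and left 4482, so these counts do not compare with the unadjusted share of all genes.

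**Figure D4:**
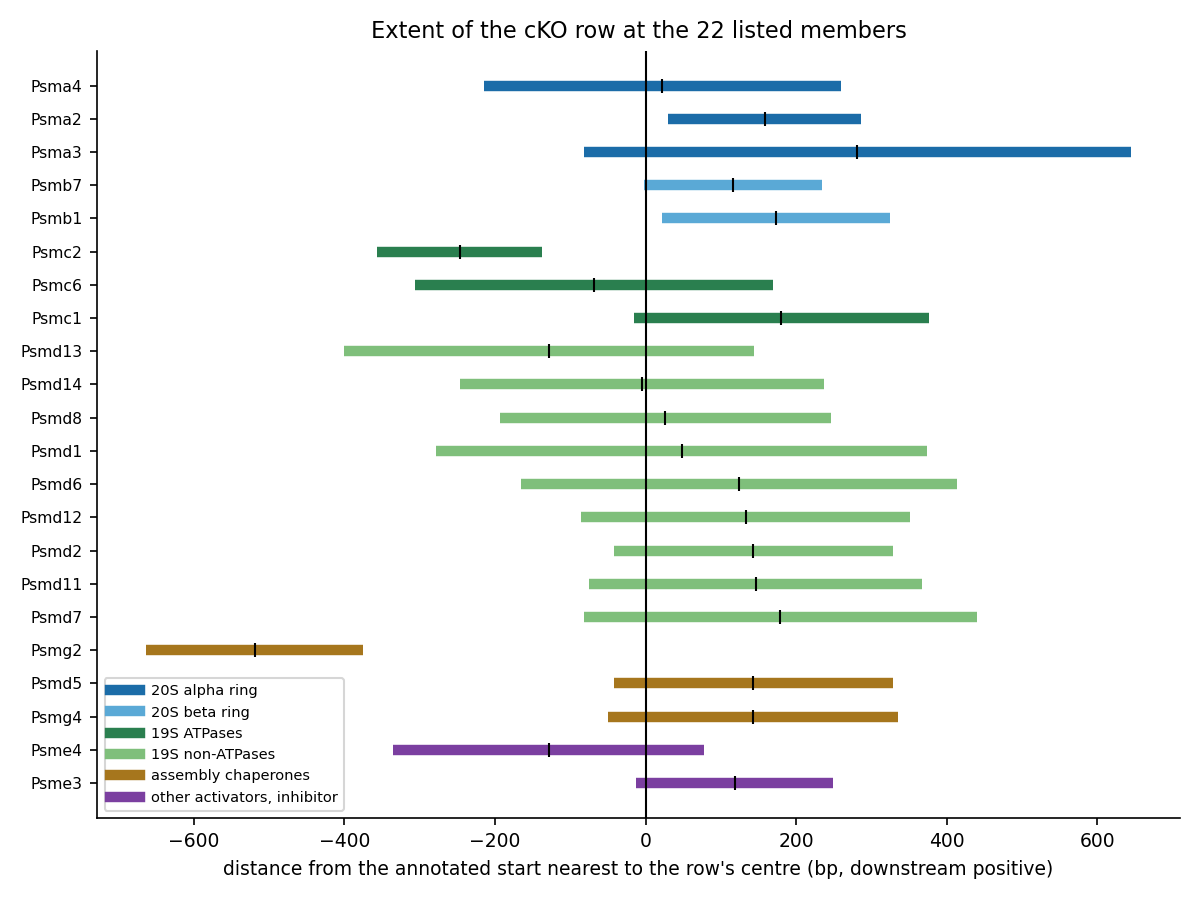
Extent of the Arid1a cKO H3.3 peak (bars) and its centre (ticks) at the 22 listed members, in bp from the annotated start nearest to the centre (x axis, downstream positive), coloured by class. Most bars cross 0 and extend downstream; those of Psmg2 and Psmc2 lie wholly upstream, and those of Psma2 and Psmb1 wholly downstream.

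The 27 unlisted members were far from any peak. The nearest peak to a start was 3.96 kb away at Psmb3 and 158 kb away at Psma1, with a median of 39.0 kb, and none of the 27 had a peak anywhere in its gene body. The farthest peak among listed members was that of Psmg2, 0.375 kb from a start, so no member lay near the 1 kb limit. Unlisted constitutive subunits were Psma1, Psma5, Psma6 and Psma7 of the alpha ring, Psmb2, Psmb3, Psmb4, Psmb5 and Psmb6 of the beta ring, the ATPases Psmc3, Psmc4 and Psmc5, and the ubiquitin receptor Psmd4 with Psmd3 of the cap. Psma7 was unlisted although it had the highest G+C content of any member, 72.8%, and a CpG ratio of 0.96. The chaperones Psmd9, Psmg1 and Psmg3 were unlisted too. The share of 50-base words occurring once in the genome was at least 91.3% in the 2 kb window of every unlisted member but Psme2b, where it was 59.9%. The part of this low share in the missing peak of Psme2b was not tested.

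Subunits that replace each other, and the related PA28 genes, were set side by side. For the alpha subunit at the position of Psma7, neither Psma7 (nearest peak 60.3 kb) nor the testis form Psma8 (22.9 kb) was listed. For the caspase-like catalytic position, neither Psmb6 (35.7 kb) nor Psmb9 was listed. At the trypsin-like position Psmb7 was listed with a fold of 6.43, and its inducible partner Psmb10 was not (36.3 kb). At the chymotrypsin-like position Psmb5 (23.5 kb), Psmb8 (74.7 kb) and Psmb11 (16.3 kb) were all unlisted. Of the PA28 family, Psme3 was listed with a fold of 4.35, and Psme1 (17.3 kb) and Psme2 (27.8 kb) were not. Thus the constitutive and the replacing subunit differed at the Psmb7 position, and at the other 3 positions of the core all genes lacked a peak. Psmb7 and Psme3 had a CpG-rich start, and Psmb10, Psme1 and Psme2 had none. Over all genes, 54.4% with such a start and 7.14% without one were listed.

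Short sequence words were sought in the RefSeq promoters, 250 bases before to 50 after the start, on both strands, for the 41 members and 15687 genes matched by symbol. Psma8, Psmb1, Psmb2, Psmb7, Psmc3, Psmd3, Psmd7 and Psmg2 were not matched. The GC box GGGCGG was present in 22 members (53.7%, beside 51.7% of all). The antioxidant response element TGACNNNGC, a word read by Nfe2l1 and Nfe2l2, was present in 6 members (14.6%, beside 15.1% of all), namely Psmb5, Psmb6, Psmc6, Psmd9, Psmd12 and Psme4. In the sequences printed above, a match stands near the start in both Psmb5 and Psmb6. The interferon word GAAANNGAA was found in 7 members (17.1%, beside 9.47% of all) and in 1 of the 7 immune genes, Psme1. CCAAT was present in 14 members (34.1%, beside 41.7% of all), the NRF1 word GCGCATGC in 3 (7.32%, beside 4.14%) and the CRE word TGACGTCA in none, beside 2.7%. Of the 18 listed and 23 unlisted members, 13 and 9 held the GC box, 3 and 3 the antioxidant word, 2 and 5 the interferon word, 6 and 8 CCAAT, and 1 and 2 the NRF1 word. The shares of these words over all listed and all unlisted genes were not computed. The GC box itself contains a CpG, and 21 of the 22 listed members but 18 of the 27 unlisted ones had a CpG-rich start. A difference in the GC box apart from CpG content was not tested. The antioxidant and CRE words begin with the same letters, but no site aligned on those letters can match both.

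Other genes of the pathway assemble the proteasome, bind to it, feed it with substrates or regulate its genes. Of 24 such genes 23 were matched, and 17 of the 23 (73.9%) were listed, beside 29.5% of all genes, with a median fold of 4.98. Of the 23, 22 had a CpG-rich start, and 17 of these 22 (77.3%) were listed, beside 54.4% of all genes with such a start. They included Pomp, the maturation factor of the core (fold 6.90), the ubiquitin receptor Adrm1 (5.29), the deubiquitinases Usp14 (5.37) and Uchl5 (5.04) and the segregase Vcp (3.60). Among the unlisted were Nfe2l1 and Nfe2l2, the transcription factors known to raise proteasome genes, Ddi2, the protease that activates Nfe2l1, and the ubiquitin genes Ubb and Rps27a. Of 8 antigen processing genes, 1 was listed (12.5%, beside 29.5% of all genes), Tapbp, with a fold of 5.40. That peak also lay within 1 kb of a start of another protein-coding gene, so it cannot be assigned to Tapbp alone. Of the 8, 4 had a CpG-rich start and 0 of these were listed, beside 54.4% of all genes with such a start. Of the 4 without one, 1 was listed, beside 7.14%. These differences were not tested. Tap1, the peptide transporter gene that neighbours Psmb9, was not listed, and neither were Tap2, Irf1, Nlrc5, B2m and Erap1.

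As genes of like kind, ribosomal protein genes were set beside the members. Of 81 cytosolic ribosomal protein genes 50 were listed (61.7%), with a median fold of 4.62, and of 78 mitochondrial ones 42 (53.8%), with a median fold of 4.09. Constitutive proteasome subunits, with 17 of 31 (54.8%), were near the mitochondrial share and below the cytosolic one. Their median fold, 5.17, was above both. Among genes with a CpG-rich start the shares were 56.7% in constitutive subunits, 68.1% in cytosolic and 57.6% in mitochondrial ribosomal protein genes. Over all genes with such a start it was 54.4%. With 1 list and genes that are not replicates, none of these differences was tested.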

How the data were processed

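The authors aligned trimmed reads to mm10 (bowtie2), discarded duplicates and called broad peaks with MACS2 in each H3.3 library (mouse monoclonal antibody). The control was rabbit IgG from pachytene-enriched cells of another study. Those cells came from juvenile testes, whereas the H3.3 cells came from adult males. Replicate peaks were intersected into 1 list per genotype. The deposited values are, per row, a score, a fold (the ratio of H3.3 to IgG pileup) and −log10 p- and q-values, of which the p-value was not used. No per-sample column was left unmatched (0).

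Rows were matched to transcript starts of GENCODE M21 on the same assembly (GRCm38). A gene with several rows was given the row of highest fold, then the widest. Named members were the 5 highest and 5 lowest by fold, pairs of exchanged subunits, and listed classes by count. Some genes of the other lists are counted but not reported by name here. The members and lists were chosen with earlier results of these data known. Coordinates are 1-based. Alternatives covered the window, transcripts, −log10 q and row support. Functions were tested on simulated data. Python 3.11.15, numpy 2.4.6, pandas 2.3.3, scipy 1.17.1, numba 0.67.0 and matplotlib 3.10.9 were used.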

Additional observations from a re-analysis of the deposited data

How the results depend on the processing

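Of 70 values recomputed for 8 results, 63 stayed within 1.5 times the reported count or median, or within the interval of the reported share, and 7 moved. The 22 listed members were the same genes with windows of 500 bp or 2 kb, with the centre inside the window, with protein-coding transcripts or 1 principal start, and with rows supported by another row. With a −log10 q of at least 5, 12 members and 11 constitutive subunits remained. The share of all genes, 29.5%, became 28.9% at 500 bp, 27.6% with the principal start, 20.8% and 9.56% where −log10 q reached 3 and 5, and 27.1% with supported rows. Immune genes and Psma8 stayed at 0 under all settings run, as did members with a WT peak. These counts of 0 are among the 63, and every setting but the 2 kb window can only remove calls. The nearest Arid1a cKO peak was 16.3 kb from an immune gene start and 22.9 kb from a Psma8 start. For immune genes and Psma8 no setting run could therefore have changed the count, and its stability is no evidence of robustness. No paired analysis was possible because the replicates of each genotype were combined into 1 list before deposit, which also prevented leaving out single replicates. A start without a peak may still carry H3.3 below the caller's threshold. The 2 WT and 3 cKO libraries, their unknown depth and the combination of replicates limit any comparison of the lists. The IgG control came from other cells, of juvenile rather than adult testes.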
